A study of Homo sapiens with 6 samples.

Results

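The SERPINA cluster is a run of serine protease inhibitor genes on the long arm of human chromosome 14. The members described here were the 8 genes SERPINA1, SERPINA3, SERPINA4, SERPINA5, SERPINA6, SERPINA10, SERPINA11 and SERPINA12, chosen by name and placed by GENCODE release 44, out of 20033 protein-coding genes in that annotation. Between the first base of SERPINA10 and the last base of SERPINA3 they occupied chr14:94280460-94624055 of the hg38 build, a stretch of 344 kb. The measurement was a list of 31569 broad peaks from HepG2 cells, an established liver tumour line labelled as hepatoblastoma, grown untreated. The peaks mark nucleosomes that were pulled down by the tandem Tudor domain (TTD) of UHRF1, used as a GST fusion on beads in place of an antibody, a method called CIDOP. Of the 6 libraries, 2 were TTD CIDOP, 2 were H3K9me2 ChIP and 2 were input, and the deposited list joins both TTD replicates, so no value below carries an error between replicates. The list gives positions and widths without heights or read numbers, so the sequencing depth behind a peak is unknown and a position outside a peak is one where none was called or where one was removed in the authors' curation by hand.

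Serpins of clade A arose by gene duplication, and most members of this cluster are secreted by hepatocytes into the blood, where they inhibit proteases by trapping them in a covalent complex or carry hormones. Their promoters are known to respond to liver transcription factors such as HNF1. The TTD of UHRF1 reads methylated lysine 9 of histone H3, and binds it more strongly when lysine 4 of the same tail carries a single methyl group, a mark found at enhancers and at the borders of active promoters. No expression was measured in these files, so SERPINA1, SERPINA3, SERPINA4, SERPINA5, SERPINA6, SERPINA10 and SERPINA11 are called liver-expressed from general knowledge of liver tissue. SERPINA12, an adipokine of fat and skin, is the 1 member not given this label, and whether HepG2 cells express it was not measured.

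The promoters below are shown because the members parted at their transcription start sites (TSSs): those of SERPINA11 and SERPINA4 lay inside a peak, those of SERPINA10 and SERPINA3 lay in a short space between neighbouring peaks, and those of SERPINA6 and SERPINA1 lay in long stretches with no peak. Each runs 5′ to 3′ from 250 bases before the TSS to 50 bases after it, from RefSeq on GRCh38.p14, and all 8 members were matched. Capitals mark the letters GTTAAT, the core of an HNF1 site, on either strand, and in SERPINA6 also TGTTTAC, the core of a FOXA site.
SERPINA11, chr14:94452751-94453050, minus strand: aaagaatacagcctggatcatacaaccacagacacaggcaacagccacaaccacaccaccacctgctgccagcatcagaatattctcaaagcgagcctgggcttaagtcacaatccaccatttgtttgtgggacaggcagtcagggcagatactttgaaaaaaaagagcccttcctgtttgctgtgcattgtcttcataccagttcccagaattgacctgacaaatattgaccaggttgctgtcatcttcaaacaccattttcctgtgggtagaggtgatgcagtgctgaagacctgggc
SERPINA4, chr14:94561192-94561491, plus strand: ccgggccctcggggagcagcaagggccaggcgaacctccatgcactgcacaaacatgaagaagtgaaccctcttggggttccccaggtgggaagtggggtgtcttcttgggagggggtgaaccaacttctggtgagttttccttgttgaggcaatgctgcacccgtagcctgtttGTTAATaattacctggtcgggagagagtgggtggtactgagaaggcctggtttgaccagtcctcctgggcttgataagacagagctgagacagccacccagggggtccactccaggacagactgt
SERPINA10, chr14:94293219-94293518, minus strand: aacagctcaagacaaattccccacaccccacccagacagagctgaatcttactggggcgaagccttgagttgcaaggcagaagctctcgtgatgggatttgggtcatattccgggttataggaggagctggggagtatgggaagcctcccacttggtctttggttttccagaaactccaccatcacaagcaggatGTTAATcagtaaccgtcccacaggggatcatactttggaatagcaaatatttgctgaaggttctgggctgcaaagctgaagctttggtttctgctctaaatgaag
SERPINA3, chr14:94612141-94612440, plus strand: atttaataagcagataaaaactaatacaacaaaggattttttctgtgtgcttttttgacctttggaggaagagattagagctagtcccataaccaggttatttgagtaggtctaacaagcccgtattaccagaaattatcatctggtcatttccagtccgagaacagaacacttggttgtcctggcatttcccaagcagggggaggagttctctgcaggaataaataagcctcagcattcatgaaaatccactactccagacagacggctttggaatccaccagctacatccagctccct
SERPINA6, chr14:94323287-94323586, minus strand: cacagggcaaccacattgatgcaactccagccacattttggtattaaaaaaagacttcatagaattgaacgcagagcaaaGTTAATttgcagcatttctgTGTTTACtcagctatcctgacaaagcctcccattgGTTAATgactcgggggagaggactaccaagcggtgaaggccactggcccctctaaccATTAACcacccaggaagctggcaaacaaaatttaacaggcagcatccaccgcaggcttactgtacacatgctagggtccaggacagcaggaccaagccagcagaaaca
SERPINA1, chr14:94388553-94388852, minus strand: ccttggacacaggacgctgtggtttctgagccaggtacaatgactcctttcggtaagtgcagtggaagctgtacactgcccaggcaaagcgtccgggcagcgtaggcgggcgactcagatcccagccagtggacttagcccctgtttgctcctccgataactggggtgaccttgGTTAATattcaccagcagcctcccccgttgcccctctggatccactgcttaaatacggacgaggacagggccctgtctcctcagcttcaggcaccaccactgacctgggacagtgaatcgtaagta

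The cluster as a whole was dense in TTD peaks. It held 29 peaks, a density of 84.4 per Mb, where chromosome 14 as a whole had 13.5 and the genome 10.2 per Mb. The peaks covered 37.6% of its bases, 8.98-fold the 4.19% of chromosome 14, where the genome's value was 3.02%. Copy number was not measured here, so chromosome 14 is given beside the genome for peak density, for cover and for the shares of genes with a peak in the body or near the TSS. When all chromosomes were cut into adjoining windows of the length of the cluster, 24 of 8974 windows (0.267%) had at least this cover, and on chromosome 14 it was 3 of 311 (0.965%), none of which overlapped the cluster. Since the grid of windows has a fixed origin, the cluster itself is split between neighbouring windows. The median window had a cover of 1.04% over all chromosomes and 1.26% on chromosome 14. Cover was lower on either side. A stretch of equal length before SERPINA10 held 12 peaks and had a cover of 5.88%, and one after SERPINA3 held 3 peaks with a cover of 3.70%. PPP4R4, the nearest protein-coding gene on the SERPINA10 side, had 4 peaks over 6.26% of its body and none within 2.5 kb of its TSS. GSC, a homeobox gene on the SERPINA3 side, had no peak, and the nearest one was 89763 bp from its TSS.

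**Figure D1:**
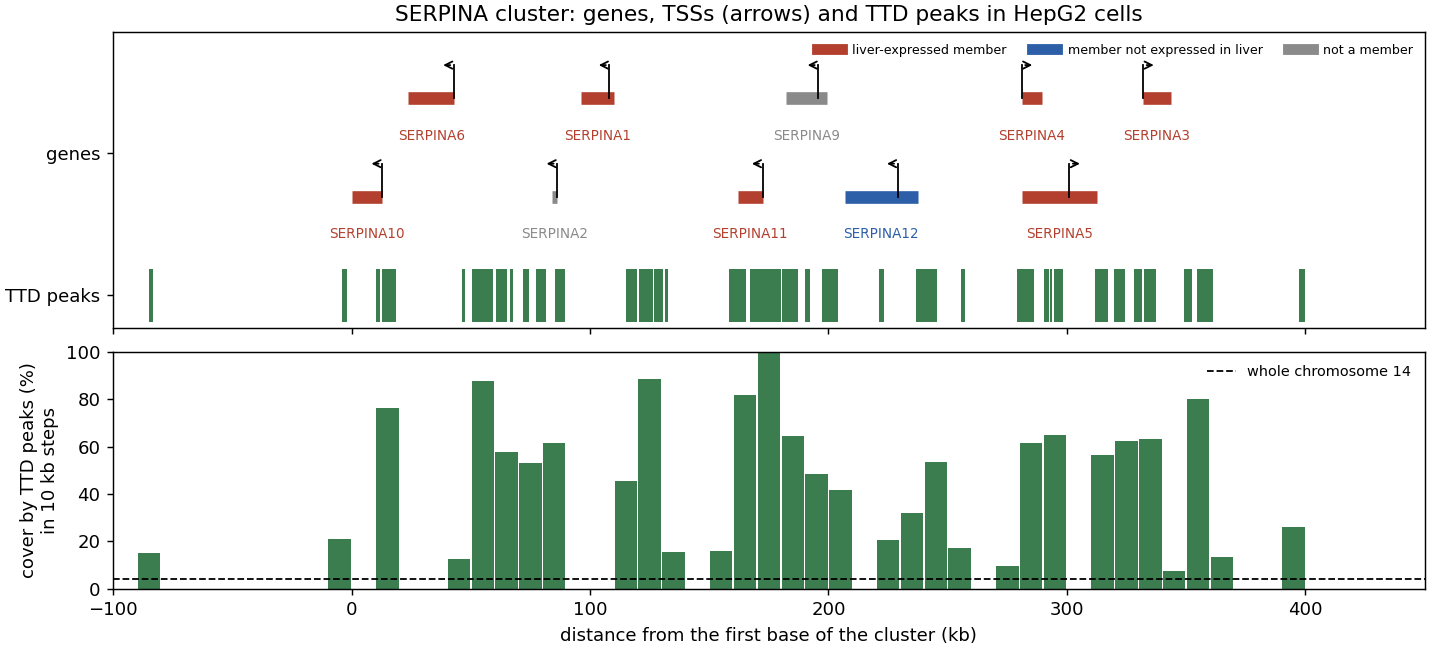
Upper panel: the SERPINA genes (bars, with an arrow at each TSS in the direction of transcription) and the TTD peaks, against distance from the first base of the cluster in kb. Lower panel: percent of each 10 kb step covered by peaks, with the 4.19% of the whole of chromosome 14 as a dashed line. Cover is uneven along the cluster, and SERPINA6 and SERPINA1 sit in peak-free stretches of 27.8 and 25.4 kb.

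The peaks of the cluster were wider than most of the list. Their median width was 4420 bp, from 900 bp to 12850 bp, against a median of 2250 bp for the whole list, with quartiles of 1370 and 3650 bp. Of the 29 peaks, 20 were at least as wide as that overall median, and 10 (34.5%) were 5 kb or wider, against 4299 (13.6%) of all peaks. The widest, at chr14:94447671-94460520, covered the TSS of SERPINA11 and ranked 330 by width in the list, and the narrowest lay in the record of SERPINA5 at chr14:94573371-94574270. The peaks had a median GC content of 47.1% and a median observed over expected CpG ratio of 0.17, a measure of how far CpG has been lost. The medians over all peaks were 43.2% and 0.19.

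More of the peak sequence lay between the SERPINA protein-coding genes than within them. Of the 29 peaks, 15 touched one of the 10 SERPINA protein-coding genes of the locus and 14 touched none. Peaks covered 45.7% of the bases outside those genes, 27.5% of their introns and 25.6% of their exons. With every protein-coding record of the locus counted, among them the record ENSG00000273259 that runs over SERPINA3 and part of SERPINA5, the values were 43.6%, 32.5% and 26.8%. Over chromosome 14 counted that way, cover was 3.33% outside these records, 5.76% in introns and 4.14% in exons. The sequence outside protein-coding records thus had the highest value of the 3 in the cluster and the lowest on the chromosome. Long non-coding RNA records counted as outside where no protein-coding record overlapped them. The stretch of 40.9 kb between SERPINA6 and SERPINA2 alone held 6 peaks over 55.4% of its bases. The 51.8 kb between SERPINA1 and SERPINA11 held 5 peaks over 35.8%, of which the long non-coding RNA record ENSG00000289541, which starts just upstream of SERPINA1 on the other strand, took in 4. Between SERPINA11 and SERPINA9, cover reached 93.7% of 9.92 kb. The long non-coding RNA record ENSG00000256357 spans SERPINA11 and this space, and had 3 peaks over 68.7% of its length. Another, ENSG00000287668, between SERPINA12 and SERPINA4, had none. Cover was lower, and below the 37.6% of the whole cluster, in the 43.6 kb between SERPINA12 and SERPINA4 (26.7%) and between SERPINA2 and SERPINA1 (34.5%). The 35.8% between SERPINA1 and SERPINA11 was also below it.

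Peaks were spread over all parts of the cluster, broken by a few long spaces. From SERPINA10 to SERPINA1 cover was 31.7% of 110.2 kb, from SERPINA11 to SERPINA12 it was 45.6% of 75.4 kb, and from SERPINA4 to SERPINA3 it was 47.7% of 62.6 kb. The median space between neighbouring peaks was 3115 bp. Of the 28 spaces, 4 were 20 kb or longer and made up 29.4% of the cluster. The longest, 27.8 kb, held the whole of SERPINA6, and another, 25.4 kb, held the whole of SERPINA1, while the other 2, of 25.8 and 21.9 kb, held no SERPINA gene.

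By gene, 6 of the 8 members had a peak in the body, 75% with a 95% Wilson interval of 40.9 to 92.9%, which covers counting error only. Among all protein-coding genes this share was 34.2%, among those of chromosome 14 it was 45.5%, and among those within the members' range of length it was 21.1%. Around the TSS of the Ensembl canonical transcript, 4 of the 8 members had a peak within 2.5 kb, 50% with an interval of 21.5 to 78.5%. The shares were 16.9% of all protein-coding genes and 26.6% of those on chromosome 14. The canonical TSS itself lay in a peak for 2 members, SERPINA11 and SERPINA4, as it did for 2.19% of all genes. With any annotated protein-coding TSS counted, it was 6 members, all but SERPINA1 and SERPINA6, and 5.14% of all genes. In the 4 members this added, the TSSs in a peak were 1 of 4 in SERPINA10, 1 of 5 in SERPINA3, 1 of 3 in SERPINA12 and 1 of 9 in SERPINA5. The median body cover of the members was 27.5%, or 12.5% over their canonical transcripts, where the median over all gene records was 0 and the mean 3.39%. Within 2.5 kb of the TSS, 4 members had a cover of 0 and the other 4 had covers of 81.6 to 100%, so their median of 40.8% lies where no member does. The median over all genes was 0 there too, and the mean 5.19%. The members share a locus and some share peaks, so they are not independent of each other.

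**Figure D2:**
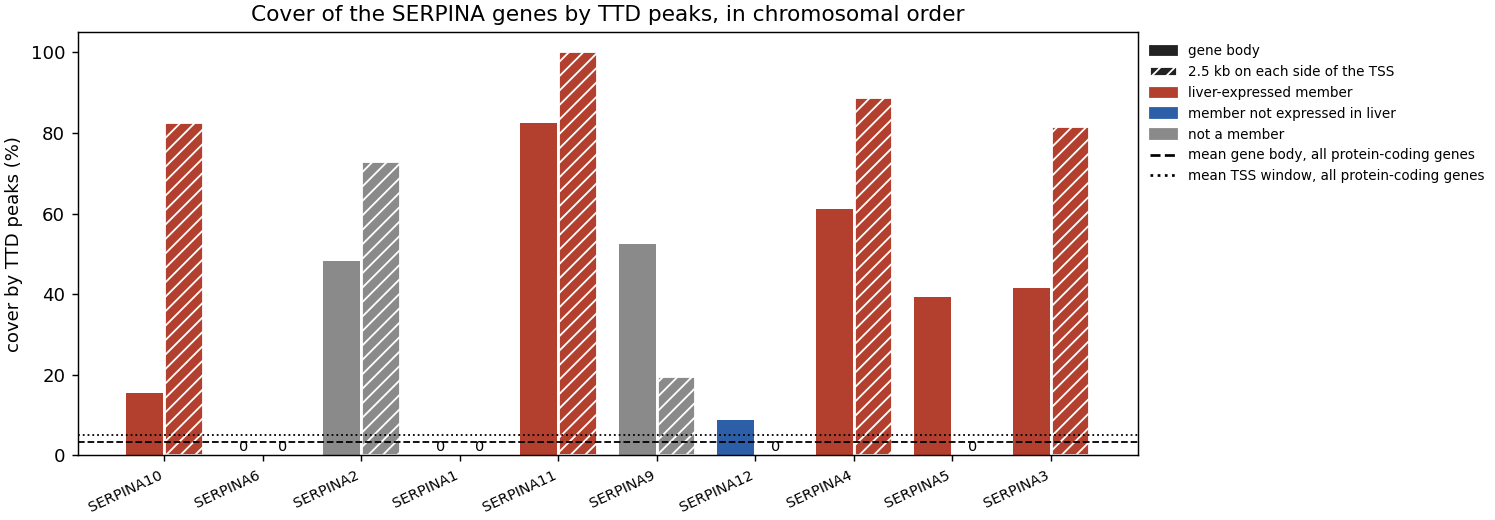
Percent of the gene body (plain bars) and of the 5 kb centred on the TSS (hatched bars) covered by TTD peaks, for the 10 SERPINA genes in chromosomal order, with the means over all protein-coding genes as dashed (body) and dotted (TSS) lines. SERPINA11, SERPINA4, SERPINA3 and SERPINA10 have TSS covers of 81.6 to 100%, and SERPINA6, SERPINA1, SERPINA12 and SERPINA5 have none.

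Of the inhibitors of neutrophil proteases, SERPINA3 had peaks in its body and near its TSS and SERPINA1 had none in either. SERPINA1 encodes α1-antitrypsin, the main circulating inhibitor of neutrophil elastase, and is among the genes most strongly expressed in liver. It had no peak in its body of 13.9 kb and none within 2.5 kb of any of its 13 annotated protein-coding TSSs. The nearest peak began 6999 bp upstream of the canonical TSS, the next in the direction of transcription was 18442 bp away, and peaks covered 30.0% of the 10 kb upstream. SERPINA3 encodes α1-antichymotrypsin, an acute-phase inhibitor of cathepsin G. It had 1 peak in its body, covering 41.5%, more than in 98.8% of protein-coding genes. Its TSS lay in a space of 920 bp, 441 bp from a peak of 3480 bp upstream and 480 bp from a peak of 4840 bp downstream, and 81.6% of the 5 kb around it was covered. Both genes were without a peak at the TSS itself, with peaks within 500 bp on each side of SERPINA3 and none within several kb of SERPINA1.

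The inhibitors of coagulation and kallikrein enzymes, SERPINA10, SERPINA5 and SERPINA4, each had a peak in the body. SERPINA10 encodes the protein Z-dependent inhibitor of coagulation factor X. Its body cover was 15.6%, from 1 peak, and the cover around its TSS was 82.6%, higher than in 99.4% of genes. Like SERPINA3, its TSS lay in a short space, here of 870 bp, 93 bp from a peak upstream and 778 bp from a peak downstream. SERPINA4 encodes kallistatin, an inhibitor of tissue kallikrein. Its TSS lay inside a peak of 7120 bp, chr14:94559501-94566620, which covered 61.1% of the body and 88.8% of the 5 kb around the TSS. SERPINA5 encodes the protein C inhibitor, which is also made in the reproductive tract. Its gene record starts at the same base as SERPINA4 and contains it, so its 5 peaks and its body cover of 39.4% include the SERPINA4 peak. Over its canonical transcript alone, SERPINA5 had 1 peak and a cover of 6.74%. No peak lay within 2.5 kb of that transcript's TSS, but the next began 2636 bp upstream, just beyond the window, and 59.9% of the 10 kb upstream was covered.

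SERPINA11 had the highest cover of the members in the body and at the TSS, and SERPINA6 shared the lowest, 0 in both, with SERPINA1. SERPINA6 encodes corticosteroid-binding globulin, a serpin without inhibitory function that carries cortisol in plasma. It had no peak in its 19.1 kb and none within 2.5 kb of its TSS, with the nearest 3475 bp upstream and the next one downstream 24346 bp away. SERPINA11, a little studied secreted serpin, had 2 peaks over 82.6% of its body, more than in 99.7% of genes, and the whole 5 kb around its TSS was covered. Cover was alike in its exons (81.6%) and introns (82.8%), and the peak over its TSS and the next one, 620 bp further on, together covered 93.8% of the 10 kb upstream.

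SERPINA12, the member not labelled liver-expressed, encodes vaspin, which inhibits a kallikrein of skin. It had 2 peaks over 8.78% of its body of 30.6 kb and none within 2.5 kb of its canonical TSS, where the nearest peaks were 5839 bp downstream and 7772 bp upstream. Its outermost annotated TSS, at the end of the gene record, lay inside a peak of 8590 bp, so that 1 of its 3 TSSs was in a peak and 2 of 3 had a peak within 2.5 kb. Taken from that outermost TSS, the cover of the window was 62.1% in place of 0. The 2 other SERPINA protein-coding genes of the locus, SERPINA9, known from germinal centre B cells, and SERPINA2, whose reading frame is often disrupted, had body covers of 52.4% and 48.2% and TSS covers of 19.5% and 72.9%. At the far end, the 2 records of SERPINA13P beyond SERPINA3 each had 1 peak, over 17.3% of the long non-coding RNA record and 9.12% of the pseudogene record.

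Set against SERPINA12, the 7 liver-expressed members had a median body cover of 39.4%, 30.6 percentage points above its 8.78%, and a median TSS cover of 81.6% against 0. The 7 genes ranged from 0 to 82.6% in the body and from 0 to 100% at the TSS, so SERPINA12 lay inside their range in both measures and was level at the TSS with SERPINA1, SERPINA5 and SERPINA6. A single gene on one side allows no test. Without any 1 of SERPINA3, SERPINA4, SERPINA10 or SERPINA11, the TSS median and its difference from SERPINA12 were 40.8 to 41.3%, and without any 1 of SERPINA3, SERPINA4, SERPINA5 or SERPINA11 the body difference was 18.7 to 19.8 points. The body difference was 4.47 points with SERPINA5 moved to the side of SERPINA12, and 8.77 points with SERPINA9 added to that side. The difference also turned on how a gene was delimited, and over exons alone the body difference was 6.22 points. With canonical transcripts in place of gene records the median body cover of the liver-expressed members fell to 15.6% and the difference to 6.24 points, and with TSSs taken from the gene records the TSS difference was 20.5 points.

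**Figure D3:**
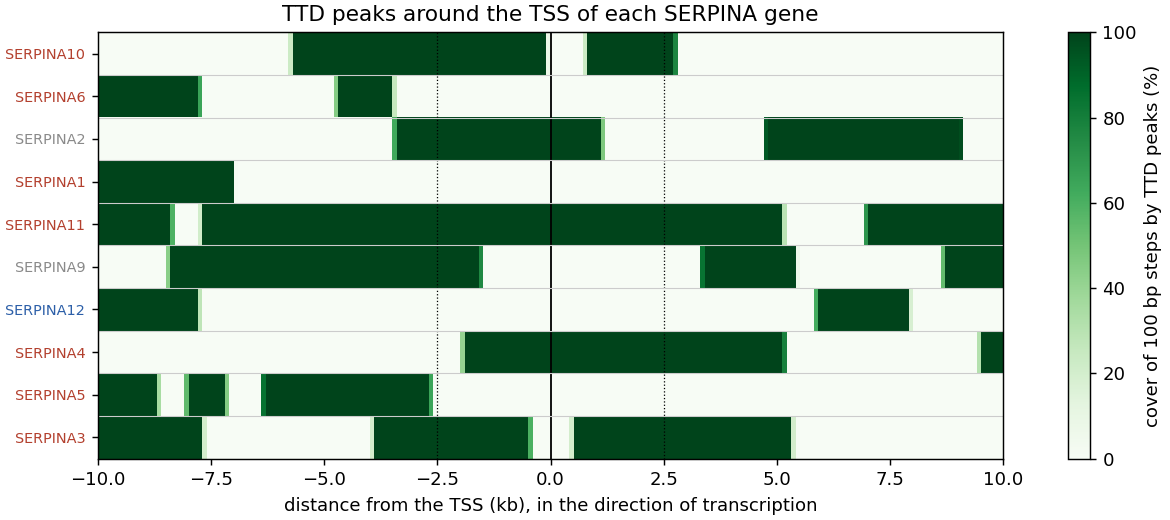
Cover by TTD peaks in 100 bp steps from 10 kb upstream to 10 kb downstream of the canonical TSS (vertical line) of each SERPINA gene, in the direction of transcription, with dotted lines at 2.5 kb. Peaks run across the TSS of SERPINA11, SERPINA4 and SERPINA2, leave a short space at SERPINA10 and SERPINA3, and are more frequent upstream than downstream.

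The sequence upstream of the members' canonical TSSs was covered more than that downstream. All 8 members had peak bases in the 10 kb upstream of the TSS, which holds for 20.9% of all protein-coding genes, and 5 of 8 had them in the 10 kb downstream, against 16.4% of all. Peaks covered 37.6% of the whole cluster and touched most of its 10 kb steps, whether upstream of a gene or not. The mean cover of the members was 46.9% upstream and 28.5% downstream. Over all protein-coding genes it was 5.11% and 4.10%. Cover upstream exceeded that downstream in 7 of the 8 members, and in 57.4% of the 5984 genes with peak bases on either side. In SERPINA12 the values were close, 22.3% upstream and 20.8% downstream. The 10 kb upstream of the canonical TSS lay within the gene's own record in SERPINA5, and for the most part in SERPINA12. SERPINA4 was the exception, with 19.4% upstream and 57.1% downstream. For SERPINA6, SERPINA1 and SERPINA5, the 10 kb downstream had no peak at all, and the 10 kb upstream had covers of 35.4%, 30.0% and 59.9%. In the first 2.5 kb the mean covers were 44.5% upstream and 43.7% downstream. From 2.5 to 10 kb they were 47.7% and 23.5%.

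All members had CpG-poor promoters, whether or not a peak was near. In the 1 kb around the TSS the observed over expected CpG ratio was 0.10 for SERPINA11 and SERPINA12, 0.14 for SERPINA3, 0.16 for SERPINA10, 0.21 for SERPINA4, 0.23 for SERPINA5, 0.24 for SERPINA6 and 0.28 for SERPINA1. The first quartile of all protein-coding genes was 0.41 and the median 0.72. The 4 members with a peak within 2.5 kb had ratios of 0.10 to 0.21 and the 4 without had ratios of 0.10 to 0.28. Among the members the groups overlapped only through SERPINA12, since the 3 liver-expressed members without a peak had ratios of 0.23 to 0.28, all above those with one. SERPINA9 and SERPINA2, which are not members, each had a peak in this window, with ratios of 0.11 and 0.25. The ratio of SERPINA2 thus lay among those of the 3 liver-expressed members without a peak. Among the 3545 protein-coding genes with a ratio no higher than that of SERPINA1, 15.0% had a peak within 2.5 kb of the TSS, close to the share among all genes.

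In the promoters shown above, the core of an HNF1 site was present with and without peaks. GTTAAT, searched on both strands, occurred in the canonical promoters of 4 of the 8 members, against 6.88% of 35116 RefSeq promoters of the same length. It began 75 bases before the TSS in SERPINA4, inside a peak, and 76 bases before it in SERPINA1, with no peak near. In SERPINA10 it began 55 bases before the TSS, in the space between the peaks. SERPINA6 had 3 matches and 1 to TGTTTAC, a core found in 3.42% of promoters. SERPINA11, SERPINA3 and SERPINA12 had no match to any of the 5 motifs searched. SERPINA5 had none but the symmetrical STAT core TTCCNGGAA, found in 1.15% of promoters. CAAAGTCCA (HNF4) and TTGCNNAAT (C/EBP), found in 0.384% and 2.66%, matched no member. These are matches of letters and not shown to be bound sites.

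Serpin genes elsewhere in the genome were counted in the same way, to be read against the 34.2% of all protein-coding genes with a peak in the body and the 16.9% with one near the TSS. Of the 7 other serpin genes made in liver (AGT, SERPINA7, SERPINC1, SERPIND1, SERPINF1, SERPINF2 and SERPING1), only AGT, the gene of angiotensinogen, had a peak in the body, with 4 peaks over 37.7%. AGT and SERPINC1, the gene of antithrombin, had a peak within 2.5 kb of the TSS, with covers of 40.0% and 23.2%. The shares of the 7 genes were thus 14.3% in the body and 28.6% near the TSS. Their intervals, 2.57 to 51.3% and 8.22 to 64.1%, hold the shares of all genes, so neither share can be placed above or below them. Of 19 further serpins, most of them inside cells or expressed outside liver, 6 had a peak in the body and 2 had one within 2.5 kb of the TSS. The highest body cover was 35.0%, in SERPINB1, an inhibitor of neutrophil elastase. The shares of these 19 genes were 31.6% and 10.5%, with intervals of 15.4 to 54.0% and 2.94 to 31.4%, which also hold the shares of all genes. The body median was 0 in both lists. Genes of 2 other families of plasma proteins were counted too. ALB, AFP, AFM and GC, the albumin family on chromosome 4, all had a peak in the body, with a median cover of 19.5%. Within 2.5 kb of the TSS, 3 of the 4 had one, and the median cover of the 4 was 83.7%. GC, which lies apart from the other 3 on that chromosome, had a body cover of 3.21% and no peak near its TSS. The fibrinogen genes FGA, FGB and FGG all had a peak in the body and one within 2.5 kb of the TSS, with median covers of 59.1% and 74.4%. These lists describe the same pool of peaks and were not tested against each other.

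**Figure D4:**
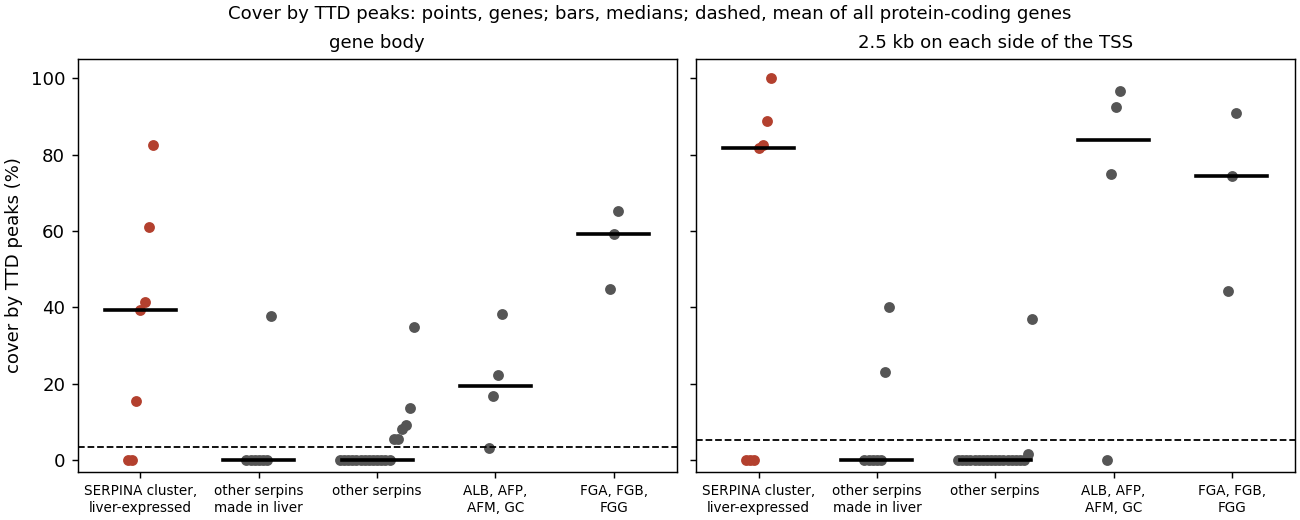
Percent of the gene body (left) and of the 5 kb centred on the TSS (right) covered by TTD peaks, 1 point a gene, with the list's median as a bar and the mean over all protein-coding genes as a dashed line. The medians of the liver-expressed members are 39.4% and 81.6%, and those of both lists of serpins outside the cluster are 0.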

How the data were processed

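HepG2 nucleosomes were released with MNase and precipitated with the GST-tagged TTD. Per the labels and the methods of the study, the authors trimmed reads with Trimmomatic 0.38, checked them with FastQC 0.72, aligned them to hg38 with HISAT2 2.2.1, made coverage tracks with deepTools 3.3.2 and called broad peaks with MACS2 2.1.1 on the mean of both replicates, followed by curation by hand. The deposited list gives the start, end and width of each peak in bp, on a grid of 10 bp, with no score. H3K9me2 and input tracks were not analysed here.

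Peaks were overlapped, by at least 1 bp, with GENCODE release 44 genes and with 2.5 kb on each side of the start of the Ensembl canonical transcript, and cover is the percent of bases inside peaks. Python 3.11.15, numpy 2.4.6, pandas 2.3.3, scipy 1.17.1 and matplotlib 3.10.9 were used, and the interval arithmetic was tested on simulated data. No test between genes was run. All 8 members are named, with the other SERPINA genes of the locus and the nearest neighbour on each side. The members, the lists and their order were chosen with earlier results of these data known.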

Additional observations from a re-analysis of the deposited data

How the results depend on the processing

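Results were recomputed with only peaks at or above the median width and with peaks under 1 kb apart joined. Where they apply, other overlap rules, TSSs, windows, spans and groupings were tried, and the medians and differences were recomputed without each liver-expressed member in turn. Of 85 such values 56 stayed within 1.5 times the reported one, 29 moved further and 0 reversed. The counts of members with a peak, the number of peaks and the cover of the cluster were not among those that moved, and TSSs from the gene records, all TSSs or a window of 5 kb on each side each gave 6 members with a peak near the TSS in place of 4. With wide peaks only, SERPINA12's body cover was 1.98%, and the median TSS cover of the liver-expressed members and its difference from SERPINA12 were 48.1%. TSSs from the gene records gave SERPINA12 62.1% and a difference of 20.5, and the mean over all TSSs gave 33.4% and 29.3. With 1 kb on each side of the TSS, the median and the difference were 54%. The body difference was 4.47 points with SERPINA5 moved to SERPINA12's side. With SERPINA9 there, the body value was 30.6%, its difference 8.77 and the TSS value 9.76%. Exons alone gave a liver-expressed median of 24.7% and a difference of 6.22. Canonical transcripts in place of gene records, an alternative chosen after seeing the data, gave 15.6% and 6.24, and a median over all 8 members of 12.5% in place of 27.5%. Leaving out 1 liver-expressed member gave body differences of 18.7 to 31.6 and TSS medians and differences of 40.8 to 82.1. Members with a TSS inside a peak numbered 6 in place of 2 when any annotated TSS was counted, an alternative also chosen after seeing the data. No paired analysis was possible because the single list holds both replicates together. The list has no depth or height, so weak and strong peaks count alike, and spaces between peaks may hold signal below the calling threshold.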
